A study of Homo sapiens with 9 samples.

Results

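Transcripts of 35 genes encoding subunits of the proteasome, or chaperones that assemble it, were followed across 6 single-cell libraries of U2OS, a human osteosarcoma line. Members were the features whose symbol is PSMA, PSMB, PSMC or PSMD followed by a number, without the interferon-inducible PSMB8 and PSMB9, and with at least 100 UMIs (unique molecular identifiers, 1 per captured transcript) over all libraries. Of 37 such symbols among 36601 genes, 35 qualified, and PSMA8 and PSMB11 had no UMI at all. The member with the fewest UMIs, PSMD5, had 6138, so none lay near the limit. The members are 7 alpha ring genes, 8 beta ring genes, 9 genes of the base, 8 of the lid, and PSMD5, PSMD9 and PSMD10, which encode assembly chaperones rather than subunits.

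In the 6 lines, the largest subunit of RNA polymerase II, RPB1, carried HaloTag or Dendra2 at its N-terminus, and its C-terminal domain (CTD) had 25, 52 or 70 repeats (25R, 52R, 70R). The groups were HaloTag-RPB1-25R, HaloTag-RPB1-52R, HaloTag-RPB1-70R, Dendra2-RPB1-25R, Dendra2-RPB1-52R and Dendra2-RPB1-70R, each represented by 1 library. HaloTag is a modified enzyme that attaches itself to added ligands, Dendra2 is a photoconvertible fluorescent protein, and the human wild-type CTD is the 52R form. All 6 groups, the 52R ones included, had been kept for 6 days in 1 µg/ml α-amanitin, a toxin acting on RNA polymerase II. The sources used here do not say whether a line was 1 clone. HaloTag libraries were sequenced on other dates than Dendra2 libraries, so tag and sequencing date cannot be told apart.

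The proteasome is the protease that degrades proteins marked with ubiquitin. Its core particle is a barrel of alpha rings, which gate the entrance, and beta rings, of which PSMB6, PSMB7 and PSMB5 carry the caspase-like, trypsin-like and chymotrypsin-like active sites. The regulatory particle caps the barrel: in its base the ATPases PSMC1 to PSMC6 unfold the substrate, and in its lid PSMD14 removes the ubiquitin chain. Proteasome genes are known to be transcribed coordinately, with the membrane-bound factor NRF1, encoded by NFE2L1, raising them when proteasome activity is short.

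Between 2718 and 4677 cells per library were kept, and each library held 52553686 to 58442223 UMIs. Median depth was 16020, 13567 and 10812 UMIs per cell in HaloTag 25R, 52R and 70R, and 15770, 18256 and 18739 in the Dendra2 libraries. The mitochondrial share of UMIs was 6.89% to 8.998% in the HaloTag libraries and 5.41% to 5.99% in those of Dendra2. Cells called S phase made up 29.3% to 33.7% of HaloTag and 42.6% to 48.8% of Dendra2 cells. Pairs of libraries shared 0 to 7 cell barcodes. The labels call the cells epithelial. Of 8 epithelial markers, KRT8 and KRT18 were abundant and GRHL2 was at 0 in every library. CDH1, KRT19 and ESRP1 stayed under 0.5 CPM (UMIs per 1000000). EPCAM ran from 0.22 to 7.65 CPM and CLDN4 from 0.74 to 8.56. CPM are scaled for composition, except for the markers in this paragraph, which were scaled by library totals alone. Of 9 osteoblast-lineage genes, RUNX2, SPARC, COL1A1 and TNFRSF11B were present. ALPL (0.47 to 5.20 CPM) and BGLAP (2.07 to 5.03) were low. SP7, IBSP and COL1A2 were at or near 0, the highest value being 0.20 CPM for COL1A2 in HaloTag 70R. The 6 leukocyte and red cell markers summed to 0.65 to 2.71 CPM.

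Proteasome transcripts made up a small share of all UMIs in every library. The 35 members together gave 8010, 7707 and 8153 UMIs per 1000000 UMIs of the library, here called CPM on totals, in HaloTag 25R, 52R and 70R and 9325, 8509 and 8890 in Dendra2. All 3 HaloTag libraries were below all 3 Dendra2 libraries. The means were 7957 ± 227 and 8908 ± 408 (SD, n = 3 libraries that differ in CTD length), a ratio of 0.893, and the ratio within a CTD length was 0.859, 0.906 and 0.917. Without mitochondrially encoded genes in the total, the ratio was 0.917. Per role, the HaloTag to Dendra2 ratio was 0.915 for the alpha ring, 0.872 for the beta ring, 0.912 for the base, 0.857 for the lid and 0.866 for the chaperones. Of these 5 sums, the 3 HaloTag values overlapped the Dendra2 values in the alpha ring and the beta ring and did not in the base, the lid and the chaperones. Without mitochondrially encoded genes in the total, the base and the lid overlapped too. HaloTag 70R then exceeded Dendra2 52R, at 1911 against 1871 in the base and 1477 against 1463 in the lid.

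**Figure D1:**
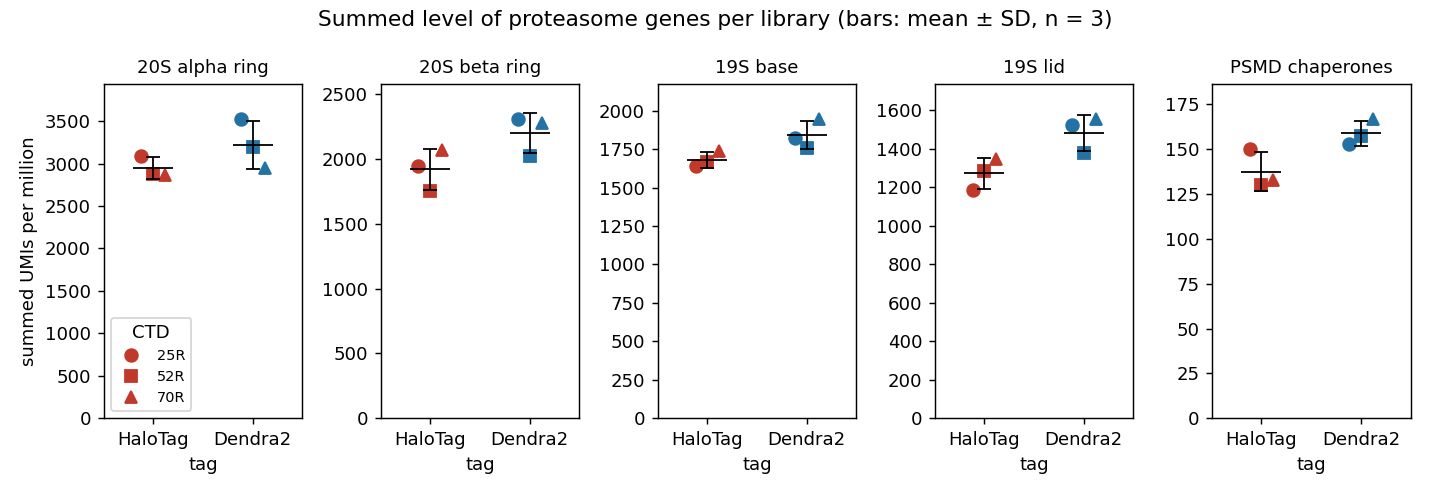
Summed CPM on totals (linear axis from 0) for each role, with 1 point per library, the marker shape giving the CTD length, and bars at the mean ± SD of 3 libraries. HaloTag lid values (1185 to 1344) are all below those of Dendra2 (1376 to 1551), while the alpha ring of Dendra2 70R, at 2949, falls among the HaloTag values.

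Core UMIs exceeded regulatory UMIs in every library, by a factor that varied between libraries. Summed core UMIs were 1.785, 1.569 and 1.601 times the regulatory UMIs in HaloTag 25R, 52R and 70R, and 1.741, 1.665 and 1.497 times in Dendra2. The ratio was highest in 25R under both tags, and the tags overlapped.

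Since 1 UMI stands for 1 transcript counted at its 3′ end, CPM of different genes were set side by side without division by length. PSMA7, an alpha ring subunit, had the highest level, at 1034 to 1586 CPM over the 6 libraries. PSMB1, a beta subunit without an active site, followed at 401 to 679 CPM and PSMA2 at 384.5 to 572 CPM, so their ranges overlapped each other but not that of PSMA7. The 3 catalytic genes lay in a middle band, with PSMB5 at 212 to 382, PSMB6 at 182 to 302 and PSMB7 at 138 to 233 CPM, and these ranges overlapped. At the low end were PSMB10, the interferon-inducible counterpart of PSMB7, at 41.2 to 84.0 CPM, and the chaperones PSMD10 (gankyrin) at 22.1 to 28.1 and PSMD5 at 16.8 to 20.3 CPM. Transcript ends of PSMA6, PSMD4, PSMD2 and PSMC3 have near-identical copies elsewhere in the genome. These covered 45.2%, 40.5%, 31.0% and 16.7% of 90-base windows in their last 500 bases, so their counts could be split. PSMC2 overlaps PMPCB on its own strand, PSMA3 so overlaps a gene without a symbol, and the counts of both are likewise uncertain.

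Nearly every cell carried proteasome transcripts. After each cell was thinned to 5000 UMIs, a cell held on average 38.4 to 46.1 member UMIs, and no cell was without one. A median of 20 to 22 of the 35 genes was detected per cell. Thinned, PSMA7 had a UMI in 98.3% to 99.7% of cells and PSMD5 in 7.65% to 9.47%, against 99.0% to 99.8% and 17.8% to 29.7% before thinning. The cell line holds no cell type that lacks the proteasome, so a background share from free RNA could not be read. The variance of the summed member UMIs over cells was 1.94 to 2.52 times their mean.

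**Figure D2:**
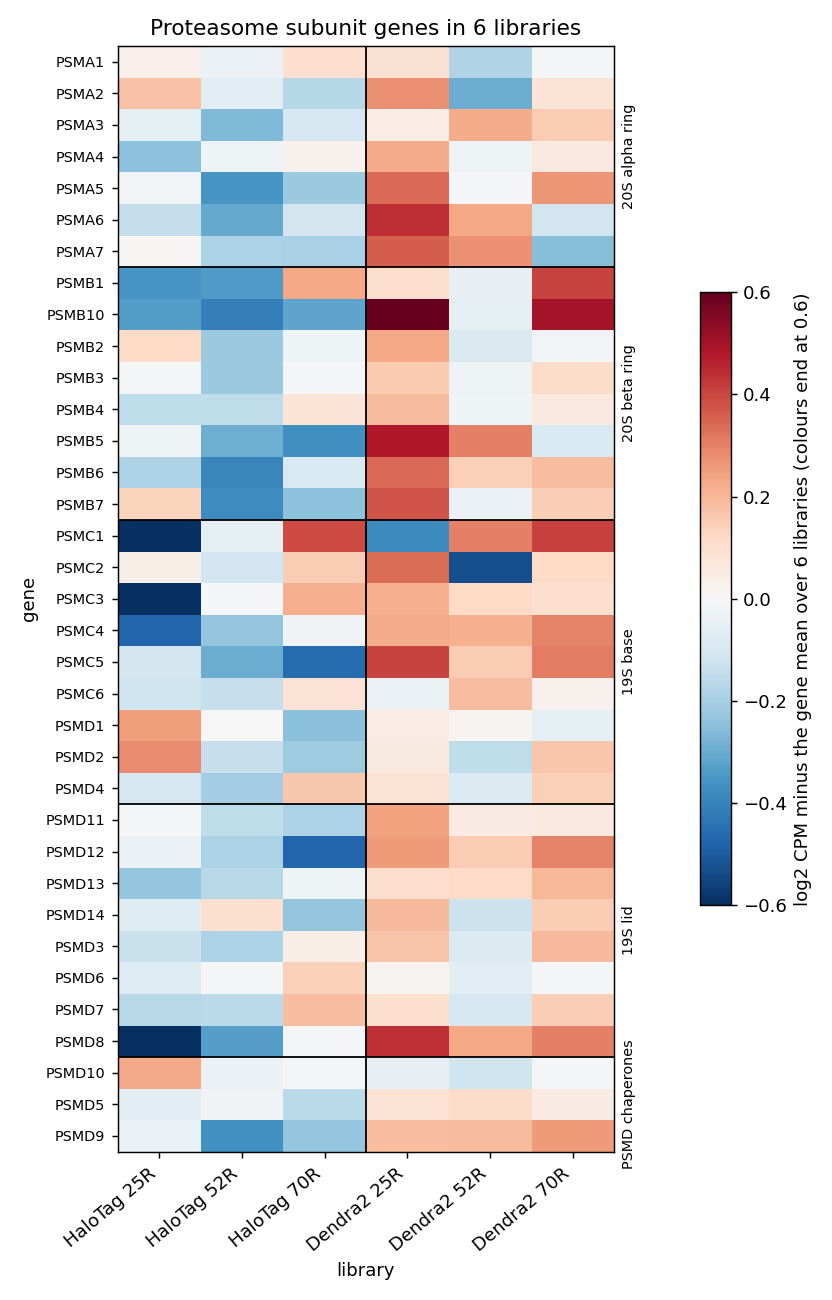
Colours give the log2 CPM of each gene minus its mean over the 6 libraries, with genes ordered by role and the black vertical line between HaloTag (left) and Dendra2 (right). PSMB10, PSMC4, PSMC5 and PSMD8 are below their mean in nearly all HaloTag libraries and above it in nearly all Dendra2 libraries, and PSMC1 is lowest in both 25R libraries.

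HaloTag libraries were compared with Dendra2 libraries in a fit of tag plus CTD length over all 18761 genes. Most proteasome genes had the lower estimate in HaloTag, but none passed the test. edgeR called 50 genes at an adjusted p under 0.05, 0.267% of all, and 0 of 35 members. At an unadjusted p under 0.05, 13 members were lower and 0 higher, against 9.08% and 10.4% of all genes. The log2 difference, HaloTag minus Dendra2, was below 0 for 31 of 35 members, where 47.4% of all genes were below 0. Its median was -0.22 over members and 0.03 over all genes. Scaled by library totals alone, the median of all genes moved to 0.12, and 27 members were below 0 with a median of -0.13. PSMA2, PSMB2, PSMD1 and PSMD2 changed sign under that scaling. Without HaloTag 52R or without Dendra2 52R, edgeR called 0 genes. DESeq2, run on the same design, called 1158 genes, 6.17% of all, and 6 members: PSMB10, PSMD8, PSMC5, PSMC4, PSMB5 and PSMB6.

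All HaloTag values lay below all Dendra2 values for 12 members, where 11.5% of all genes did so, and above them for 0 members, where 12.5% of all genes did so. Within pairs of equal CTD length, HaloTag was lower for 32 members in 25R (median -0.29), 27 in 52R (median -0.20) and 25 in 70R (median -0.19). The sign was negative in all 3 pairs for 19 members, against 21.0% of all genes, and positive in all 3 for 0, against 23.6%.

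**Figure D3:**
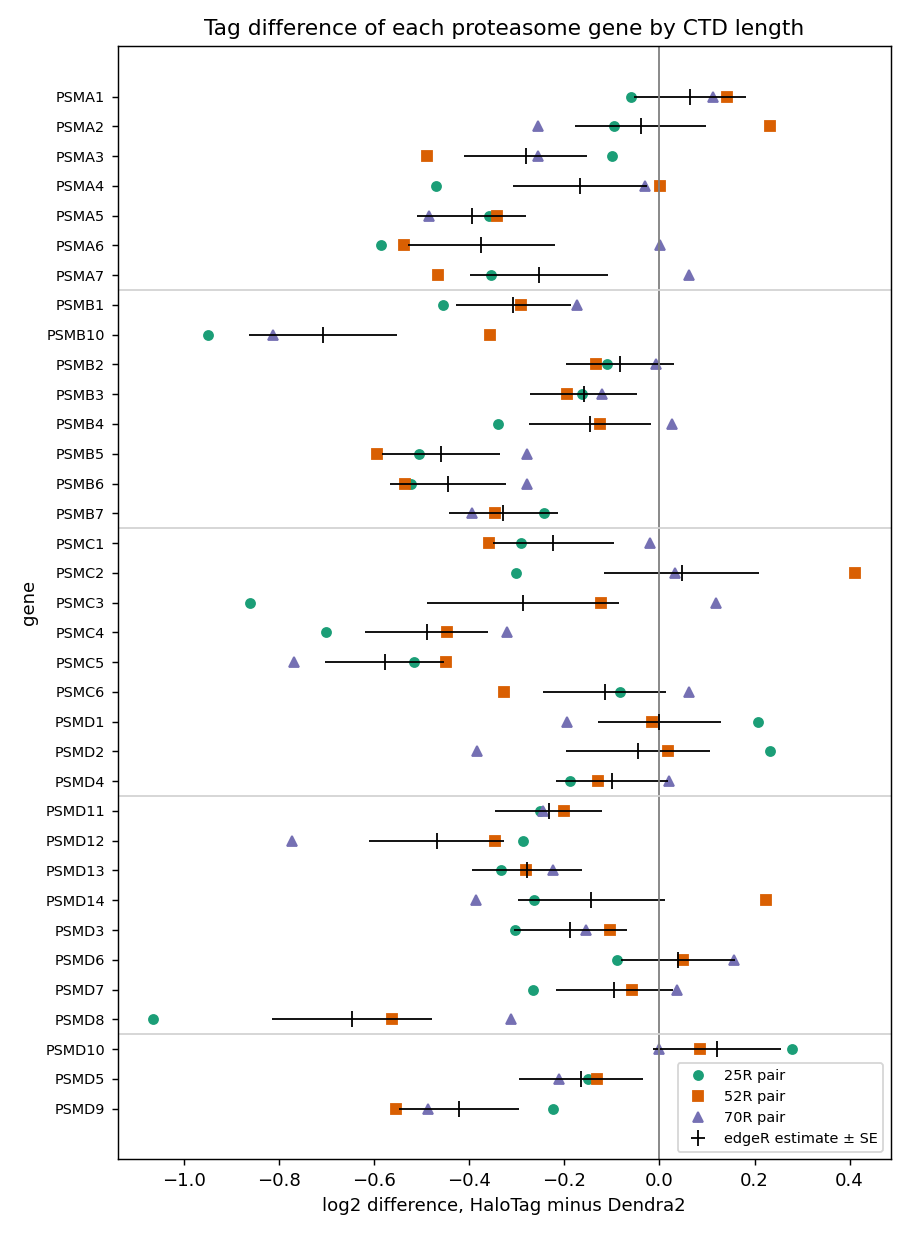
Points give the log2 difference, HaloTag minus Dendra2, of each gene in the 25R, 52R and 70R pair, and black bars the edgeR estimate ± SE. Most points lie left of 0, but all points of a gene do so for only 19 of 35 genes. The beta ring is left of 0 throughout except PSMB4 in 70R. PSMC2, PSMD1, PSMD2 and PSMD14 are among the genes with points on both sides.

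In the alpha ring, 6 of 7 genes were below 0, with a median of -0.25. PSMA5 read 265, 210 and 230 CPM in HaloTag 25R, 52R and 70R and 340, 267 and 322 in Dendra2. The highest HaloTag value was just under the lowest Dendra2 value, and the log2 difference was -0.39 ± 0.11 (SE), with an unadjusted p of 0.013. The exception in the ring, PSMA1, was 245, 234 and 258 CPM in HaloTag and 256, 212 and 238 in Dendra2, a log2 difference of 0.06 ± 0.12 that was 0.10 to 0.11 without a 25R library and 0.017 to 0.032 without any other.

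All 8 beta ring genes were below 0, with a median of -0.32, and 5 had an unadjusted p under 0.05. PSMB10 had the lowest estimate of all 35 members. It read 43.5, 41.2 and 44.01 CPM in HaloTag against 84.0, 52.8 and 77.4 in Dendra2, without overlap. The log2 difference was -0.71 ± 0.16, with an edgeR adjusted p of 0.12 and a DESeq2 adjusted p of 0.0048. PSMB10 lies at chr16:67934506-67936864 (GRCh38, minus strand) and replaces PSMB7 in the immunoproteasome, the form that cells make under interferon.

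PSMB5, the chymotrypsin-like subunit and the target of bortezomib, read 269, 224 and 212 CPM in HaloTag and 382, 338 and 257 in Dendra2. HaloTag was lower in each pair, but HaloTag 25R exceeded Dendra2 70R. Its log2 difference was -0.46 ± 0.12, with an edgeR adjusted p of 0.15 and a DESeq2 adjusted p of 0.043. PSMB6, the caspase-like subunit, read 210, 182 and 224 CPM in HaloTag and 302, 263 and 271 in Dendra2, without overlap. Its log2 difference was -0.45 ± 0.12, with adjusted p-values of 0.15 (edgeR) and 0.047 (DESeq2). PSMB7, the trypsin-like subunit, read 197, 138 and 151 CPM in HaloTag and 233, 175 and 199 in Dendra2. The tags overlapped, and the log2 difference was -0.33 ± 0.11, with adjusted p-values of 0.21 (edgeR) and 0.16 (DESeq2).

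In the base, 8 of 9 genes were below 0, with a median of -0.12, and the ATPases differed widely among themselves. PSMC5 read 315, 277 and 247 CPM in HaloTag and 451, 378 and 421 in Dendra2, without overlap. Its log2 difference was -0.58 ± 0.12, with adjusted p-values of 0.12 (edgeR) and 0.0070 (DESeq2). PSMC4 read 87.1, 103 and 120 CPM in HaloTag and 142, 140 and 149 in Dendra2, again without overlap. Its log2 difference was -0.49 ± 0.13, with adjusted p-values of 0.15 (edgeR) and 0.036 (DESeq2). PSMC2 had an estimate of 0.05 ± 0.16, which became -0.14 without either 52R library and 0.20 without either 25R library. PSMD1 and PSMD2, the large scaffold subunits of the base that receive ubiquitin-like domains, had estimates of -0.0005 and -0.04.

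In the lid, 7 of 8 genes were below 0, with a median of -0.21. PSMD8 read 239, 293 and 366 CPM in HaloTag and 501, 433 and 455 in Dendra2. The tags did not overlap, and the gap narrowed from -1.07 in the 25R pair to -0.56 in the 52R pair and -0.31 in the 70R pair. Its log2 difference was -0.65 ± 0.17, with adjusted p-values of 0.15 (edgeR) and 0.017 (DESeq2). PSMD6 was the lid gene above 0, at 83.2, 86.9 and 96.9 CPM in HaloTag and 88.5, 84.0 and 86.9 in Dendra2. Its estimate of 0.04 ± 0.12 became -0.03 without either 70R library. PSMD14, the deubiquitinase, was at -0.14 ± 0.15.

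Of the chaperones, PSMD9 was lower in each HaloTag library, at 102, 81.3 and 89.0 CPM against 119, 119 and 125, a log2 difference of -0.42 ± 0.13 with an unadjusted p of 0.015. PSMD10 had the highest estimate of all members, 0.12 ± 0.14, from 28.1, 23.4 and 23.7 CPM in HaloTag and 23.1, 22.05 and 23.7 in Dendra2, and was 0.017 with Dendra2 25R omitted and 0.020 with HaloTag 25R omitted.

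Several library properties moved with the tag. Among cells called outside S and G2/M, 31 of 35 members were below 0 and the median was -0.26. With each cell thinned to 5000 UMIs, 29 members were below 0 and the median was -0.20. Leaving out mitochondrially encoded genes left the median at -0.22. The tag difference of all genes also varied with genomic length: among genes of at least 10 CPM split into 5 length groups, its median was -0.15 in the shortest group and 0.05 in the longest. In these groups, from short to long, 6 of 10, 8 of 12, 8 of 9, 1 of 1 and 2 of 3 members were below their own group's median. The part of length in the members' difference was not tested.

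The members' share of UMIs was higher in cells called S or G2/M than in cells called neither. In cells called neither S nor G2/M, the summed level was 7455, 7089 and 7629 CPM on totals in HaloTag and 8942, 7941 and 8436 in Dendra2. Cells called S were 1.051 to 1.125 times, and cells called G2/M 1.024 to 1.162 times, as high in every library. In G2/M the regulatory particle was 1.097 to 1.265 times its level in cells called neither, and the core 0.980 to 1.097 times, with the value below 1 in Dendra2 25R. Summed over all members, HaloTag was below Dendra2 in all 9 pairs of equal phase and CTD length, with ratios from 0.834 to 0.984. In G2/M these were 0.919, 0.970 and 0.984, and in cells called neither 0.834, 0.893 and 0.904. Split by particle, HaloTag was above Dendra2 in G2/M for the regulatory particle at 52R (1.03) and the core at 70R (1.007). The other ratios by particle were below 1. Free RNA also enters the phase calls, and the difference in called phases between the tags was not tested for it.

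**Figure D4:**
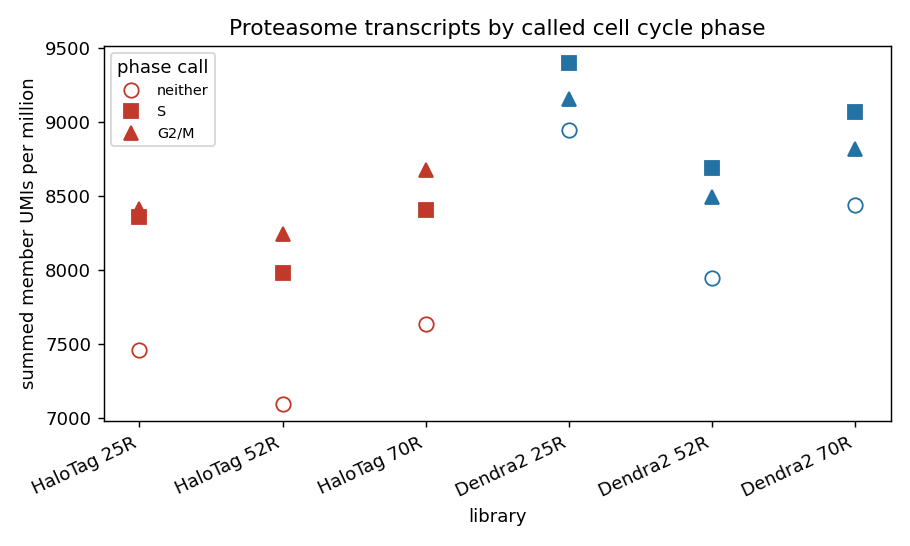
Summed CPM on totals of the 35 genes in cells called S, G2/M or neither, 1 point per library and phase, on an axis that does not start at 0. Open circles (neither) are lowest in every library, and each is lower in HaloTag than in the Dendra2 library of the same CTD length.

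NRF1 acts through the antioxidant response element, a short motif in proteasome promoters, so the gene starts of 5 members with estimates far from 0 are shown, none of which passed edgeR's test. RefSeq promoters (GRCh38.p14, 250 bases before to 50 after the start) were matched for 30 of 35 members by symbol, in 36 windows. On both strands, TGACNNNGC, the core of the antioxidant response element, was in 9 windows (25%), against 13.35% of 35116 promoters of the same length. CCAAT was in 16 windows (44.4%, all promoters 34.6%), GGGCGG, the GC box, in 23 (63.9%, all 44.95%), and CCGGAAG, an ETS motif, in 11 (30.6%, all 10.26%). Matches may overlap one another. The 9 genes with TGACNNNGC were PSMA4, PSMB3, PSMC4, PSMC5, PSMD1, PSMD12, PSMD3, PSMD5 and PSMD9, and their tag differences ran from -0.58 in PSMC5 to -0.0005 in PSMD1. Below, capitals mark TGACNNNGC, CCAAT and CCGGAAG on either strand; each sequence reads 5′ to 3′ along the gene. PSMC4 (chr19:39970915-39971214, plus strand) and PSMD12 (chr17:67366528-67366827, minus strand) hold the TGACNNNGC motif and had no overlap between HaloTag and Dendra2 libraries, PSMD8 (chr19:38374321-38374620, plus strand) and PSMB10 (chr16:67936801-67937100, minus strand) had the lowest tag estimates and have no match to it in this window, and PSMC1 (chr14:90256303-90256602, plus strand) had the largest CTD difference.
PSMC4: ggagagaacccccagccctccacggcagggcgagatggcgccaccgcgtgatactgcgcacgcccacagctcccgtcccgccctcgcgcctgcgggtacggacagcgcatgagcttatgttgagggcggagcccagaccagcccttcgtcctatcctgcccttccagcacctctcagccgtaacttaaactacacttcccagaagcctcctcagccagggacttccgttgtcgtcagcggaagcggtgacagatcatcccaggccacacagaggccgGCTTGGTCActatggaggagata
PSMD12: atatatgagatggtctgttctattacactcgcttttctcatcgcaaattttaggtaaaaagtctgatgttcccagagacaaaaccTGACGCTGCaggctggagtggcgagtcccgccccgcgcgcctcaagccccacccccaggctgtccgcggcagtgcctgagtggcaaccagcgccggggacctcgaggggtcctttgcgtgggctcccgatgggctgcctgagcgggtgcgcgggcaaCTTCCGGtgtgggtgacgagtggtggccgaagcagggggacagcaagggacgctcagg
PSMD8: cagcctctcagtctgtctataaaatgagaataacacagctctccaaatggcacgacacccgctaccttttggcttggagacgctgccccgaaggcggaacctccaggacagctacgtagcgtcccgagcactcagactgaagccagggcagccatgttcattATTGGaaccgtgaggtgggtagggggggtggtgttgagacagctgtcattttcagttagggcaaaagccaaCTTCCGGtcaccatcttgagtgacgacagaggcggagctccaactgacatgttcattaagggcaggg
PSMB10: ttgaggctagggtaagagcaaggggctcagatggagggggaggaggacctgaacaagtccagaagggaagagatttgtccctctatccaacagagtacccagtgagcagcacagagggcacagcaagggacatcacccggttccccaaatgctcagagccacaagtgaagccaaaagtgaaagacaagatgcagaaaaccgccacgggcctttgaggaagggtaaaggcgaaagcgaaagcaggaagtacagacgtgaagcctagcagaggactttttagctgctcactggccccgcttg
PSMC1: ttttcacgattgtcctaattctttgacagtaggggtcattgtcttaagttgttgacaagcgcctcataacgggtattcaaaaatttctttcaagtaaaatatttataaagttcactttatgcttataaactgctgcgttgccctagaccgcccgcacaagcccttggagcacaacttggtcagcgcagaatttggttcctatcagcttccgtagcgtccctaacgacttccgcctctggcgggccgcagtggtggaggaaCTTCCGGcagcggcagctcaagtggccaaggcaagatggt
PSMD12, a lid subunit, read 163, 146 and 120 CPM in HaloTag and 199, 186 and 205 in Dendra2, without overlap, a log2 difference of -0.47 ± 0.14 with an unadjusted p of 0.015.

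Between CTD lengths, 25R was compared with 52R. edgeR called 8 genes, 0.0426% of all, and 0 of 35 members, and 1 member was lower and 3 were higher at an unadjusted p under 0.05, against 6.71% and 6.26% of all genes. DESeq2 called 512 genes, 2.73% of all, and 1 member, PSMC1. The log2 difference, 25R minus 52R, was above 0 for 28 of 35 members, where 50.8% of all genes were above 0, with a median of 0.14 over members and 0.01 over all genes. All 15 core genes had a fitted difference above 0, with a median of 0.20, and 11 of 17 regulatory genes, with a median of 0.10. Read within each tag, 11 of 15 core genes and 8 of 17 regulatory genes were above 0 under both tags. The median of the regulatory genes was 0.020 in HaloTag and 0.17 in Dendra2, and that of the core 0.21 in each. With library totals, 10 members were below 0 and the median was 0.09. Without Dendra2 25R, 13 members were below 0, the median was 0.09, that of the regulatory genes was -0.0092 against 0.16 in the core, and edgeR called 782 genes, none of them a member.

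PSMC1, an ATPase of the base at chr14:90256527-90275429 (GRCh38, plus strand), stood opposite to the core genes. It read 66.9, 103 and 140 CPM in HaloTag 25R, 52R and 70R and 81.9, 132 and 142 in Dendra2. Under both tags the level was lowest in 25R and highest in 70R, and neither 25R value reached any other. The log2 difference 25R minus 52R was -0.65 ± 0.16, with adjusted p-values of 0.25 (edgeR) and 0.043 (DESeq2). That of 70R minus 25R was 0.93 ± 0.16, with adjusted p-values of 0.22 (edgeR) and 0.00061 (DESeq2). Over leave-one-out fits it ran from 0.78 to 1.09. PSMC1 overlaps NRDE2 on the other strand, and its share of thinned cells with a UMI was 28.1% and 30.4% in the 25R libraries and 39.5% to 50.1% in the other 4.

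**Figure D5:**
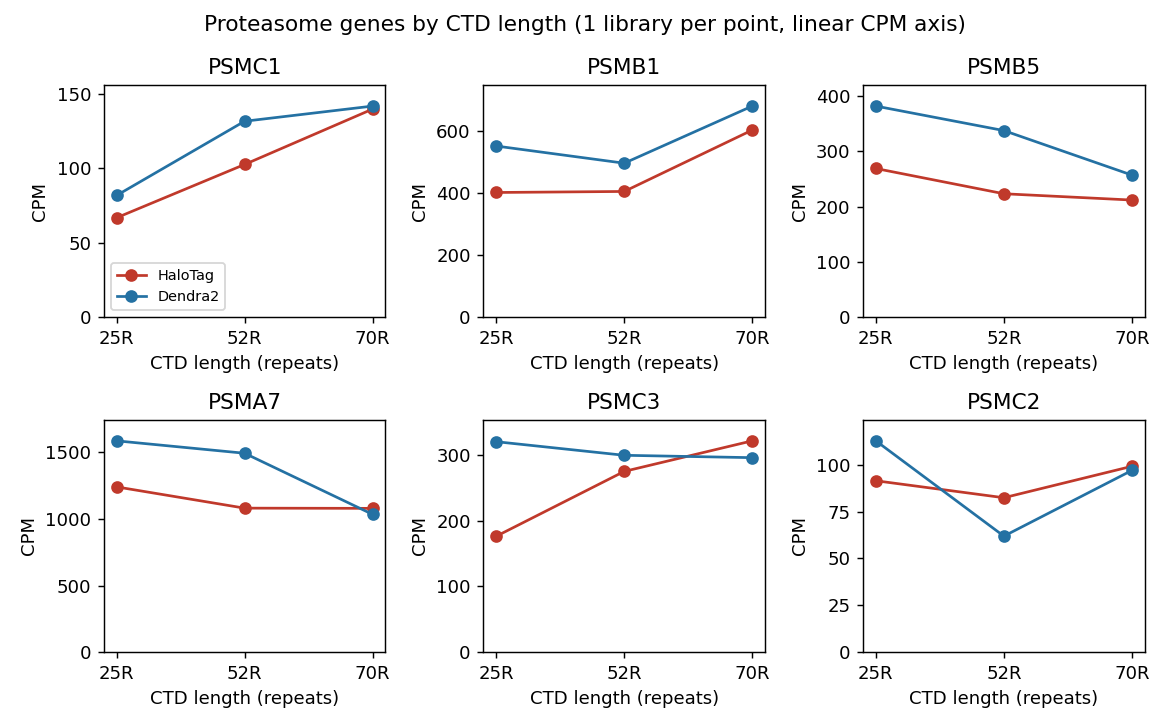
CPM (linear axes from 0) of 6 genes in the 25R, 52R and 70R libraries of each tag, 1 library per point. PSMC1 is lowest in 25R under both tags, PSMB5 highest there, PSMB1 highest in 70R, PSMC3 low in HaloTag 25R alone and PSMC2 low in Dendra2 52R.

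The largest positive differences between 25R and 52R were those of PSMC2 (0.51 ± 0.20), PSMB7 (0.46 ± 0.14), PSMA2 (0.40 ± 0.17) and PSMB10 (0.37 ± 0.19). For PSMC2 they rested largely on 1 library: it read 91.4, 82.4 and 99.1 CPM in HaloTag and 113, 61.9 and 96.9 in Dendra2, so that only Dendra2 52R stood apart. PSMB7 was higher in 25R than in 52R under both tags, with an edgeR adjusted p of 0.29, and stayed between 0.39 and 0.54 when any library was left out. The other 3 moved by over 1.5 times. Without Dendra2 52R they were 0.23 (PSMC2), 0.20 (PSMA2) and 0.11 (PSMB10), and without HaloTag 52R 0.78, 0.61 and 0.63. PSMC2 was 0.255 and PSMB10 0.20 without Dendra2 25R. Below 0 after PSMC1 came PSMC3 (-0.25 ± 0.25), PSMC4 (-0.11 ± 0.16) and PSMC6 (-0.11 ± 0.16), all ATPases of the base. PSMC3 read 176, 275 and 321 CPM in HaloTag and 320, 299 and 296 in Dendra2, low only in HaloTag 25R, and its difference was 0.14 without that library. That of PSMC4 was 0.03 without HaloTag 25R, and that of PSMC6 was 0.05 without Dendra2 52R. PSMB5 and PSMB6 were at 0.22 ± 0.15 and 0.20 ± 0.15.

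Comparing 70R with 52R, edgeR called 0 genes, 0% of all, and 0 members, and 0 members were lower and 1 higher at an unadjusted p under 0.05, against 2.61% and 2.04% of all genes. DESeq2 called 67 genes, 0.357% of all, and 0 members. The median log2 difference, 70R minus 52R, was 0.13 over members, with 26 of 35 above 0, where 49.4% of all genes were. The highest was PSMB1, at 401, 404 and 602 CPM in HaloTag 25R, 52R and 70R and 550, 495 and 679 in Dendra2. It was highest in 70R under both tags, with a log2 difference of 0.52 ± 0.15, an unadjusted p of 0.012 and an edgeR adjusted p of 0.96. PSMC2 (0.45), PSMB10 (0.31) and PSMD7 (0.30 ± 0.15), a lid subunit that pairs with PSMD14, followed. The lowest were PSMA7 (-0.26 ± 0.18), PSMB5 (-0.23 ± 0.15), PSMD1 (-0.16) and PSMD5 (-0.10). PSMB6 and PSMB7 were at 0.17 and 0.16. Single libraries moved several of these values by over 1.5 times. With Dendra2 70R left out PSMA7 was -0.023, PSMB5 -0.091 and PSMD1 -0.30. With HaloTag 70R left out they were -0.51, -0.37 and -0.021. PSMA7 was -0.10 and PSMB5 -0.13 when Dendra2 52R was omitted, and PSMA7 was -0.42 when HaloTag 52R was. Without Dendra2 52R, PSMB10 was 0.061 and PSMC2 0.19, and without HaloTag 52R they were 0.59 and 0.74. With HaloTag 70R omitted, PSMD7 was 0.19 and PSMB6 0.044. PSMB6 was 0.11 when HaloTag 52R was omitted and 0.30 when Dendra2 70R was. The comparisons of 25R and of 70R share the 52R libraries, so values of both for 1 gene are not independent.

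Comparing 70R with 25R, edgeR also called 0 genes and 0 members, with 1 member lower and 2 higher at an unadjusted p under 0.05, against 6.19% and 6.24% of all genes. DESeq2 called 455 genes, 2.43% of all, and 1 member, PSMC1. Members were split, 21 below and 14 above 0, where 51.7% of all genes were below, with a median of -0.05. The core had 11 of 15 genes below 0 and the regulatory particle 7 of 17. After PSMC1, the highest were PSMB1 (0.44 ± 0.15, unadjusted p 0.023), PSMC3 (0.36 ± 0.25, and -0.04 without HaloTag 25R) and PSMC4 (0.27). The lowest were PSMB5 (-0.45 ± 0.15, unadjusted p 0.023), PSMA7 (-0.40 ± 0.18), PSMB7 (-0.31 ± 0.14) and PSMD1 (-0.30 ± 0.16). PSMA7 read 1241, 1081 and 1080 CPM in HaloTag 25R, 52R and 70R and 1586, 1493 and 1034 in Dendra2, so that Dendra2 70R was the lowest of all 6. PSMB6 was at -0.03. Omitting HaloTag 25R gave -0.13 for PSMD1 and 0.12 for PSMC4. Omitting Dendra2 25R gave -0.46 and 0.42. Omitting HaloTag 70R gave -0.15 for PSMD1, 0.14 for PSMC4, -0.64 for PSMA7 and 0.060 for PSMC3, and omitting Dendra2 70R gave 0.40 for PSMC4, -0.16 for PSMA7 and 0.68 for PSMC3. PSMC3 was 0.80 with Dendra2 25R omitted.

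The authors' deposited kinetic tables give, per gene and library, a burst frequency, the fitted rate at which a gene switches on, and a mean from which burst size, the transcripts per burst, was taken as mean over frequency. These values are not scaled for depth. Genes averaging at least 0.5 UMIs in each cell numbered 4355, of which 33 were members, and PSMD5 and PSMD10 were too low. The median burst size of members was 0.891, 0.739 and 0.598 in HaloTag 25R, 52R and 70R and 1.21, 1.03 and 1.24 in Dendra2. That of all 4355 genes was 0.401, 0.361 and 0.296 against 0.438, 0.418 and 0.497, so HaloTag was lower at each CTD length in both. Median depth was 16020 UMIs per cell in HaloTag 25R and 15770 in Dendra2 25R. At 52R it was 13567 in HaloTag and 18256 in Dendra2, and at 70R 10812 and 18739. The part of depth in burst size was not tested.

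Burst size was lower in HaloTag for 33 of 33 members, where 85.4% of all genes were lower. At an unadjusted p under 0.05, 24 members were lower and 0 higher, against 28.7% and 1.4% of all genes. limma called 12 members lower and 0 higher at an adjusted p under 0.05, against 9.85% and 0.528% of all genes. In this fit the spread was taken from the trend over all genes, so SE and p do not reflect a gene's own spread. The 12 were PSMA5, PSMA6, PSMB1, PSMB5, PSMB6, PSMB7, PSMB10, PSMC4, PSMC5, PSMD3, PSMD8 and PSMD13. The median log10 difference was -0.19 over members and -0.12 over all genes, with -0.23 in the core and -0.18 in the regulatory particle. PSMB10 had sizes of 0.200, 0.132 and 0.132 in HaloTag and 0.455, 0.301 and 0.390 in Dendra2, without overlap, a log10 difference of -0.40 ± 0.10 (limma adjusted p 0.0043). PSMB5 was 1.01, 0.739 and 0.703 in HaloTag and 2.16, 1.63 and 1.46 in Dendra2, again without overlap, a log10 difference of -0.33 ± 0.08 (limma adjusted p 0.0043). PSMD8 was at -0.32 ± 0.08 (limma adjusted p 0.0049), PSMB6 at -0.30 ± 0.08 (0.010) and PSMB7 at -0.27 ± 0.08 (0.021). The smallest differences were those of PSMD1 (-0.09), PSMD2 (-0.08) and PSMD14 (-0.08), which were -0.0026, 0.069 and 0.022 without either 70R library.

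These calls depended on how the libraries were scaled and on single libraries. No fit scaled the kinetic values by depth, and the part of depth was not tested. With each library centred on the median of all genes, 30 of 33 members were below 0, where 55.2% of all genes were, and limma called 1, PSMB10, against 3.24% of all genes. With all 36541 genes of finite values in the fit, 0 members were called. For that fit and the fits without 1 library below, the share of all genes called was not counted. The members' counts there cannot be set against other genes. Without HaloTag 25R, HaloTag 52R, Dendra2 25R or Dendra2 52R, 0 were called, without HaloTag 70R 4 and without Dendra2 70R 1.

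Burst frequency was higher in HaloTag for 26 of 33 members, where 50.7% of all genes were above 0, and for all 15 core genes against 10 of 17 regulatory genes. limma called 0 members, against 2.57% of all genes lower and 0.253% higher. At an unadjusted p under 0.05 there were again 0 members, against 9.58% of all genes lower and 4.29% higher. The median log10 difference was 0.05 over members and 0.001 over all genes. The highest were PSMD13 (0.11 ± 0.06), PSMB5 (0.10 ± 0.06) and PSMD4 (0.10 ± 0.06), the ubiquitin receptor, and the lowest were PSMC3 (-0.07), PSMD14 (-0.06) and PSMC1 (-0.05, and 0.05 without either 52R library). PSMB5 had frequencies of 4.53, 4.64 and 3.59 in HaloTag and 2.83, 3.86 and 3.47 in Dendra2, so the tags overlapped. Without either 25R library PSMB5 was 0.047, PSMD13 0.056, PSMC3 -0.11 and PSMD14 -0.086, and without either 52R library PSMD13 was 0.17 and PSMD14 -0.023. PSMB6 and PSMB7 were at 0.07 and 0.08.

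Between 25R and 52R, burst frequency was below 0 for 32 of 33 members, where 70.1% of all genes were, and burst size above 0 for 30 of 33, where 61.6% were. limma called 0 members for either, against 0.0459% of genes lower in frequency, 0.276% higher in size, 0.0% higher in frequency and 0.436% lower in size. At an unadjusted p under 0.05 it had 0 members for frequency, where 6.96% of all genes were lower and 1.24% higher. For size it had 0 members lower and 2 higher, where 3.1% and 4.73% of all genes were. The 3 lowest frequency differences were those of PSMD2 (-0.13), PSMD12 (-0.11) and PSMB3 (-0.09), and the highest PSMD1 (0.04), PSMD14 (-0.02) and PSMD7 (-0.02). With Dendra2 52R omitted, PSMB3 was -0.058 and PSMD2 -0.080, and PSMB3 was -0.024 with Dendra2 25R omitted and -0.16 with HaloTag 25R omitted. For size the highest were PSMD2 (0.22 ± 0.10), PSMB7 (0.22 ± 0.10) and PSMC2 (0.20 ± 0.11), and the lowest PSMC1 (-0.15 ± 0.10), PSMC3 (-0.01) and PSMD1 (-0.01). Omitting Dendra2 52R gave 0.15 for PSMD2, 0.095 for PSMC2 and -0.27 for PSMC1, and omitting HaloTag 52R gave 0.31 for PSMC2 and -0.032 for PSMC1. PSMD2 was 0.061 with HaloTag 25R omitted and 0.38 with Dendra2 25R omitted. PSMC1, lower in level in 25R, had sizes of 0.304, 0.545 and 0.444 in HaloTag and 0.436, 0.488 and 0.742 in Dendra2, lowest in 25R under both tags.

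Other genes of the pathway were read from lists chosen for their roles. Of 20 further subunits, activators and assembly factors, 15 were below 0 in HaloTag minus Dendra2 and 5 above, with a median of -0.21. edgeR called 0, with 4 lower and 1 higher at an unadjusted p under 0.05, where 9.08% and 10.4% of all genes were, and DESeq2 called 2, PSMG3 and PSME2, where it called 6.17% of all genes. PSMG3, a chaperone of alpha ring assembly, read 73.1, 70.3 and 67.0 CPM in HaloTag and 102, 92.7 and 114 in Dendra2, without overlap, a log2 difference of -0.55 ± 0.13 with adjusted p-values of 0.13 (edgeR) and 0.018 (DESeq2). PSME2, a subunit of the interferon-inducible activator PA28, read 154, 185 and 169 CPM in HaloTag and 283, 251 and 209 in Dendra2, without overlap, a log2 difference of -0.54 ± 0.15 with adjusted p-values of 0.15 (edgeR) and 0.037 (DESeq2). PSMB9, an immunoproteasome subunit like PSMB10, read 13.0, 39.3 and 25.1 CPM in HaloTag and 34.5, 43.4 and 26.0 in Dendra2. Its tags overlapped, with a log2 difference of -0.53 ± 0.28 and an edgeR adjusted p of 0.35.

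Of 9 genes of the NRF1 pathway and the VCP unfoldase that delivers substrates, 4 were below and 5 above 0, with a median of 0.10. edgeR called 0 of them. At an unadjusted p under 0.05, 1 was lower and 1 higher, where 9.08% and 10.4% of all genes were. OS9, a lectin of endoplasmic reticulum quality control, was at 0.47 ± 0.17, SYVN1, a ubiquitin ligase of the same membrane, at -0.44 ± 0.16 and NPLOC4, a VCP cofactor, at -0.33 ± 0.14. NFE2L1 itself, named after its values were seen, read 40.4, 51.9 and 66.6 CPM in HaloTag and 42.0, 36.7 and 48.8 in Dendra2, with overlap and a log2 difference of 0.30 ± 0.16 (edgeR adjusted p 0.35). Of 10 ubiquitin and shuttle genes, 6 were below and 4 above 0, with a median of -0.09, and edgeR called 0. At an unadjusted p under 0.05, 1 was lower and 0 were higher, against the same 9.08% and 10.4% of all genes. UBB, a polyubiquitin gene, read 398, 395 and 445 CPM in HaloTag and 523, 515 and 517 in Dendra2, without overlap, a log2 difference of -0.33 ± 0.12 with an unadjusted p of 0.028. RAD23B, a shuttle receptor, was at -0.29 ± 0.13 and UBQLN2, another, at 0.28 ± 0.14.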

How the data were processed

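The authors deposited 1 matrix of UMI counts per library. Per the file headers these came from Cell Ranger 6.1.2, and per the submitters' processing notes from GRCh38 alignments. The labels list 9 samples because each HaloTag library was sequenced in 2 runs, which the matrices merge. Their deposited kinetic tables hold scores for each gene (mean, frequency and a squared coefficient of variation), fitted by a beta-Poisson model according to the headers. The variation follows from mean and frequency to within 0.9989 to 1.004 times, so it was not read as a separate measure. The barcode and feature lists were used to name cells and genes.

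Barcodes under 500 genes or over 20% mitochondrial UMIs were removed (2.01% to 3.03%). No doublet caller was run. UMIs were summed per library, since cells are not replicates. Genes passing filterByExpr (18761, with all 35 members) were scaled by TMM. The test was the quasi-likelihood F test of edgeR 4.0.16 (R 4.3.3) with tag and CTD length as terms, Benjamini-Hochberg over all genes, threshold 0.05. With 1 library per genotype the fit has 2 residual degrees of freedom, which hold the disagreement of tag and CTD effects. SE and p-values therefore do not measure a spread between replicate libraries of a genotype. DESeq2 1.42.0 was run beside it. Log10 burst frequency and burst size were fitted with limma 3.58.1 for 4355 genes. For burst size the prior degrees of freedom were infinite, so each gene's spread was replaced by the trend over all genes. CPM per pair carried a prior count of 2. Phases were called from list scores against 50 control genes per list gene on cells thinned to 5000 UMIs. Copies of the 3′ ends of GENCODE v44 transcripts were sought in the GRCh38 genome with minimap2 2.31-r1302, allowing 2 mismatches. Python 3.11.15 was used. The fits were tested on simulated data, where every 4-fold change was recovered. Of 2-fold changes, edgeR recovered 85% between tags and 58% between 25R and 52R, DESeq2 90% and 56%, and limma 99% and 98%. False calls in the same order were 5 of 190 and 6 of 164 for edgeR, 14 of 204 and 16 of 172 for DESeq2, and 5 of 204 and 9 of 207 for limma.

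The members and lists were chosen with earlier results of these data known, so no p-value is adjusted over them or given for a score over them. Named by rule were PSMB5, PSMB6 and PSMB7, the 4 highest and 4 lowest members per comparison, the 3 highest and 3 lowest for bursting, and up to 3 genes of each pathway list with the largest tag difference. Others were named after their values were seen. Alternatives were DESeq2 and its size factors, library totals, no filter, all barcodes, thinned cells, cells outside S and G2/M, no mitochondrial genes, each library left out, and for bursting centred libraries and all genes.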

Additional observations from a re-analysis of the deposited data

Results flagged for a closer look

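PSMC2, an ATPase of the base, differed in direction between CTD lengths. Its log2 difference, HaloTag minus Dendra2, was 0.41 in the 52R pair and -0.30 in the 25R pair, a gap of 0.71. Each pair is 1 library against 1, so the difference between the pairs was not tested. The 52R value goes with a low level in Dendra2 52R, at 61.9 CPM, where the other 5 libraries lay between 82.4 and 113 CPM.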

How the results depend on the processing

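With library totals the median log2 of members was -0.13 for HaloTag against Dendra2 and 0.094 for 25R against 52R, and PSMB6 in 70R against 25R turned to 0.013. Genes called for HaloTag against Dendra2 numbered 1158 with DESeq2, 327 without a filter and 81 in thinned cells. For 25R against 52R they numbered 512, 104 and, outside S and G2/M, 2. For 70R against 52R they numbered 67, 2 and, in thinned cells, 1, and for 70R against 25R 455, 50, 1 outside S and G2/M and 1 in thinned cells. Members called by DESeq2 were 6 between tags, 1 for 25R against 52R and 1 for 70R against 25R. Without mitochondrially encoded genes the summed level was 8675 CPM on totals in HaloTag and 9456 in Dendra2. With all finite genes 0 members, and with centred libraries 1, were called for burst size. Centring turned burst size between tags to 0.022 for PSMD1, 0.024 for PSMD2 and 0.028 for PSMD14, and burst frequency in 25R against 52R to 0.022 for PSMD7 and 0.024 for PSMD14 (log10). The cause of these changes was not tested.

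Leaving out each library, genes called ranged from 0 to 152 between tags, 0 to 782 for 25R against 52R, 0 to 3 for 70R against 52R and 0 to 746 for 70R against 25R, and edgeR called 0 members in every such fit. The highest counts between tags, for 25R against 52R and for 70R against 25R came without Dendra2 25R. Median log2 of members ranged from -0.25 to -0.21, 0.089 to 0.19, 0.11 to 0.17 and -0.060 to 0.013 in that order, and members called for burst size from 0 to 4. Changing sign were PSMC2 (-0.14 to 0.20) and PSMD6 (-0.032 to 0.082) between tags, PSMC3 (-0.69 to 0.14), PSMC4 (-0.26 to 0.030) and PSMC6 (-0.26 to 0.051) for 25R against 52R, and PSMC3 (-0.037 to 0.80) and PSMB6 (-0.15 to 0.11) for 70R against 25R. For burst frequency these were PSMC1 (-0.12 to 0.047) between tags and PSMD1 (-0.017 to 0.10), PSMD7 (-0.049 to 0.0057) and PSMD14 (-0.068 to 0.030) for 25R against 52R, and for burst size PSMD2 (-0.19 to 0.069) and PSMD14 (-0.17 to 0.022) between tags and PSMC3 (-0.11 to 0.084) and PSMD1 (-0.089 to 0.067) for 25R against 52R. No paired analysis was possible because replicate numbers in the labels count sequencing runs, which the deposited counts merge for HaloTag, and each Dendra2 library has 1. Matching by CTD length is already part of the model.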
